A study of Homo sapiens with 9 samples.

Results

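Apolipoproteins are the protein parts of the particles that carry lipids in plasma, and the genes described here encode those parts and the proteins that load or remodel the particles. The 10 genes listed were APOA1, APOA2, APOC3, APOA5, APOB, MTTP, APOE, APOM, LCAT and LIPC, and every probe set that the platform annotation gives to one of these symbols alone was taken. This gave 19 probe sets of 9 genes, out of 54613 probe sets without controls and 19775 genes tested. LIPC, which encodes hepatic lipase, had no such probe set and was not analysed here.

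Expression was measured on 9 one-colour arrays in Huh7 cells, an established line from a human hepatocarcinoma, and the samples formed 3 groups of 3 labelled as biological replicates. One group received siRNA against DEGS1, another a mixture against the subunits of serine palmitoyltransferase (SPTLC123 in the labels), and the third a scramble siRNA as the control. Every group received its siRNA at 20 nM. All samples are labelled 72 h after transfection, but the protocol adds a conditioned medium with 1% serum at 72 h and keeps the cells in it for another 24 h, and the labels do not settle which time holds. A hepatoma line in culture is the model throughout, with no plasma in which secreted particles could be remodelled.

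Serine palmitoyltransferase starts ceramide synthesis and DEGS1, dihydroceramide desaturase, ends it. Hepatocytes make high-density lipoproteins around apolipoproteins A-I and A-II, and very-low-density lipoproteins around apolipoprotein B, which the microsomal triglyceride transfer protein (MTTP) loads with lipid in the endoplasmic reticulum. Apolipoprotein M binds sphingosine 1-phosphate, a breakdown product of ceramide, and carries it in plasma mainly on high-density lipoproteins. The comparisons ask how the RNA of these genes stood after silencing at the entry and at the end of ceramide synthesis.

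Levels are log2 of the deposited normalized intensity, and a gene was represented by its brightest probe set. Changes carry the SE of a moderated limma fit over all 9 arrays, and a gene was called at a Benjamini-Hochberg adjusted p under 0.05 over all 19775 genes. Array data have no read depth, and the number of arrays limits the precision. Of the siRNA targets, DEGS1, SPTLC1 and SPTLC2 were lower in the labelled groups. DEGS1 siRNA left 7.55% of the scramble signal of DEGS1, and SPTLC123 siRNA left 20.7% of SPTLC1 and 48.4% of SPTLC2. SPTLC3, which the label SPTLC123 also names, was not analysed here. Weak 5′ signal marked some arrays: the actin 3′ minus 5′ log2 difference was 1.15 to 1.31 in DEGS1 replicates 2 and 3 and SPTLC123 replicate 3, and 0.40 to 0.56 in the other 6 arrays. No scramble array was among these 3. Calls that ended without them are therefore given with each member, and for list genes in their list or after the lists. For the cell type markers they are not given. Of 9 hepatocyte markers measured, all 9 exceeded the median level over probe sets (4.87). The other cell types were checked with 3 macrophage markers, of which 0 lay above that median, 5 stellate cell or fibroblast markers (1 above), 4 endothelial markers (2 above), 4 cholangiocyte markers (4 above) and 6 enterocyte markers (5 above).

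APOM and APOA2 fell after DEGS1 siRNA, and RefSeq gives a promoter for both. Of the 10 listed genes 6 had a promoter entry in the RefSeq table (GRCh38.p14). The 250 bases before the start are shown for the pair, because these are the called members with an entry. Capitals mark matches to the motifs searched on both strands: the nuclear receptor core hexamers AGGTCA and GGGTCA, the HNF1 core GTTAAT, the TATA core TATAA, and a direct repeat of GGGTC with a spacer of 2 bases, which was added after the APOM sequence had been read and contains the GGGTCA match. APOM is on the plus strand at chr6:31655644-31655893, inside the annotated span of the gene, and APOA2 on the minus strand at chr1:161223629-161223878.
APOM: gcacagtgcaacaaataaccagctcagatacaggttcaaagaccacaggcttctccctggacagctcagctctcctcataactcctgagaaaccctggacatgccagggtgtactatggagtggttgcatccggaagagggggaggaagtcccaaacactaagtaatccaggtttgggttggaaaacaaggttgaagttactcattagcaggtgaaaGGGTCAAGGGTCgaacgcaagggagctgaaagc
APOA2: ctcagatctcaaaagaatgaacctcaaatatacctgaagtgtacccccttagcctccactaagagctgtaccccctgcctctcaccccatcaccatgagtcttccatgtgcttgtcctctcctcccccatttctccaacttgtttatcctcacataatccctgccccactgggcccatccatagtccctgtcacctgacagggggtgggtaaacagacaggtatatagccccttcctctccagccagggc
In APOM the repeat ran from 33 to 22 bases before the start, and its first core hexamer from 33 to 28. Such a repeat was in 55 of 35116 promoter windows of the same length (0.157%), GGGTCA alone in 12.1%, AGGTCA in 12.1%, GTTAAT in 6.23% and TATAA in 18.9%. The APOA2 window held none of these letter strings. A match is a string of letters in the reference, and binding was not measured.

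After SPTLC123 siRNA, APOM, APOC3 and APOA1 fell, and the other 6 measured members were not called. That is 3 of 9 genes, against 9.94% of all genes called in this comparison, 5.31% higher and 4.63% lower. All 9 members lay above the median level over probe sets. In a fit without dim genes (12945 genes with a group mean at or above that median), 3 members and 16.1% of genes were called. At an unadjusted p under 0.05, 4 members were lower and 0 higher. The change was below 0 in all 9 genes, with a median of -0.24, against 55.5% of all genes and a median of -0.03 over all genes. After DEGS1 siRNA, APOM and APOA2 fell, 2 of 9, against 9.7% of all genes called, 4.66% higher and 5.04% lower. In the fit without dim genes 2 members and 16.3% of genes were called. At an unadjusted p under 0.05, 2 members were lower and 2 higher. The change was below 0 in 5 of 9 genes, with a median of -0.07, against 53% of all genes and a median of -0.01. The comparisons share their 3 scramble arrays. In the fit over every probe set, 5 of the 19 member probe sets were called after SPTLC123 siRNA, each lower, against 4.52% of all probe sets (2.63% higher and 1.88% lower). After DEGS1 siRNA 4 of the 19 were called, each lower, against 3.42% (1.82% higher and 1.6% lower). Without the 3 arrays of weak 5′ signal 3 members were called after SPTLC123 siRNA, against 7.6% of all genes in that fit, and 0 after DEGS1 siRNA, against 1.31% of all genes, where 1 DEGS1 array is left (2 lower and 0 higher at an unadjusted p under 0.05).

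**Figure D1:**
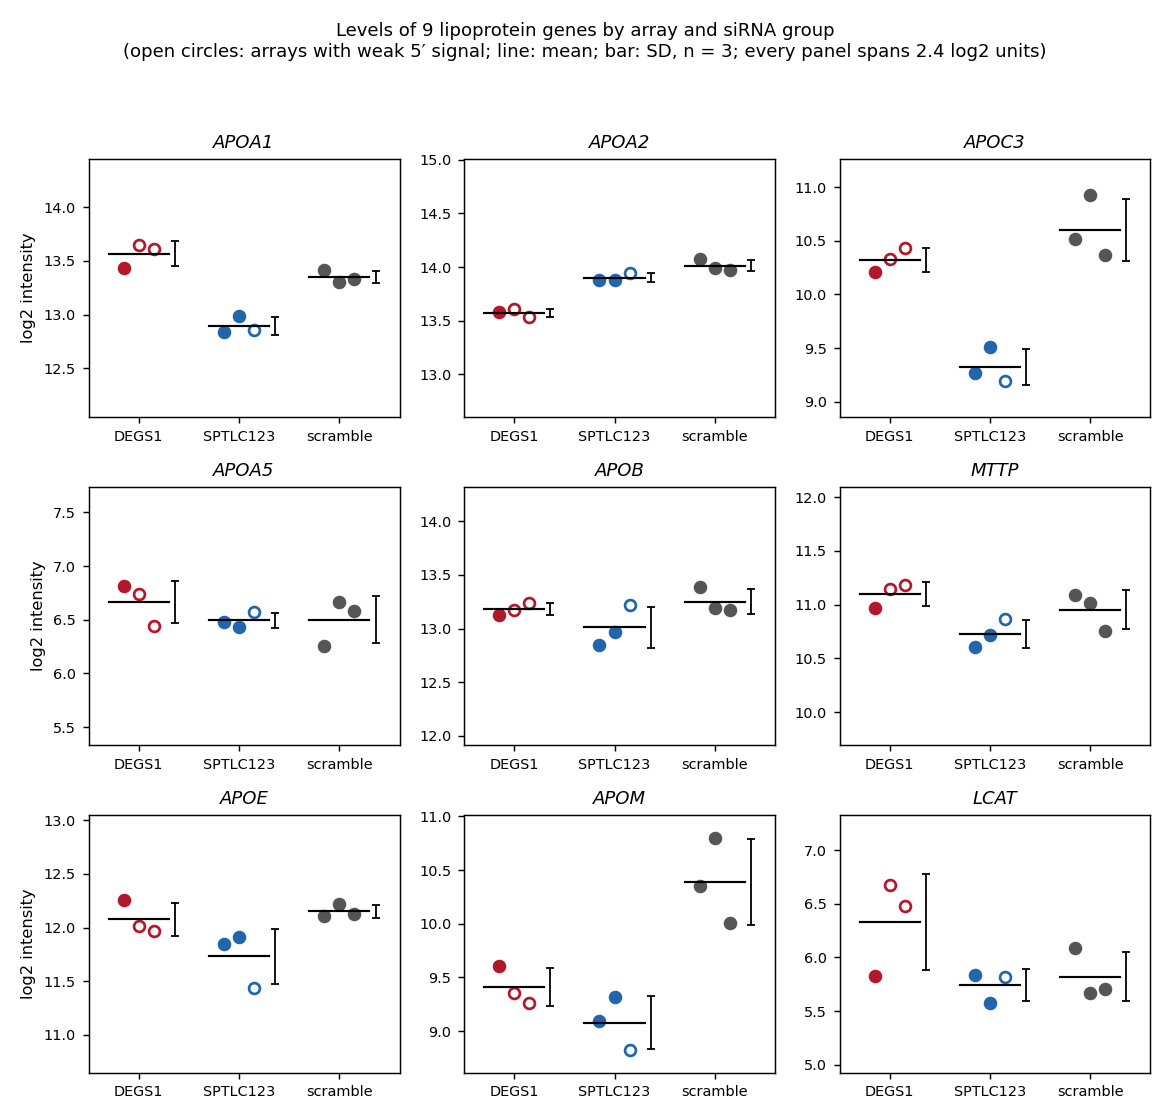
Level (log2 intensity) of the 9 measured genes in each array, by siRNA group; the line is the mean, the bar the SD (n = 3), and open circles are the 3 arrays with weak 5′ signal. APOM lies between 8.82 and 9.61 in all 6 knockdown arrays, below every scramble array, while APOC3 and APOA1 are lowest in the SPTLC123 arrays and APOA2 is lowest in the DEGS1 arrays.

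APOM, the sphingosine 1-phosphate carrier, was the member that fell in both knockdowns. Its level was 9.61, 9.36 and 9.26 in DEGS1 replicates 1 to 3, 9.10, 9.32 and 8.82 in SPTLC123, and 10.35, 10.80 and 10.01 in scramble. All 6 knockdown arrays lay below all 3 scramble arrays, and scramble replicate 2 was the highest. The change was -1.31 ± 0.19 after SPTLC123 siRNA (adjusted p = 0.0015), which left 40.4% of the scramble signal, and -0.98 ± 0.19 after DEGS1 siRNA (adjusted p = 0.00953), which left 50.8%. The knockdowns overlapped: DEGS1 minus SPTLC123 was 0.33 ± 0.19 (adjusted p = 0.342, 95% interval -0.09 to 0.75). The second probe set, 214910_s_at, changed by -1.30 and -0.99, and both were called in a fit over all probe sets (adjusted p = 0.00922 and 0.0386). Its 9 values correlated with those of the first at r = 0.997. Without the 3 arrays of weak 5′ signal APOM stood at -1.18 after SPTLC123 siRNA (adjusted p = 0.0131) and at -0.78 after DEGS1 siRNA (adjusted p = 0.244, 1 DEGS1 array). With the actin 3′/5′ difference as a covariate both calls held, at -1.24 and -0.80 (adjusted p = 0.00103 and 0.0456). Both also held without any one array, but after DEGS1 siRNA the adjusted p came close to the threshold (0.00501 to 0.0489). After SPTLC123 siRNA it ran from 0.00108 to 0.00847.

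APOC3, which encodes an inhibitor of lipoprotein lipase and of the uptake of triglyceride-rich particles, fell after SPTLC123 siRNA. The values were 9.27, 9.51 and 9.19 in SPTLC123, against 10.51, 10.93 and 10.37 in scramble. The groups did not overlap, and the change was -1.28 ± 0.14 (adjusted p = 0.000299), with 41.1% of the signal left. In DEGS1 the level was 10.21, 10.33 and 10.43, which overlapped with scramble; the difference of -0.28 ± 0.14 was not called (adjusted p = 0.263, 95% interval -0.60 to 0.04). The order was therefore SPTLC123 lowest, then DEGS1 and scramble, which did not differ beyond the threshold. Leaving out any one array kept the call after SPTLC123 siRNA (adjusted p from 0.00026 to 0.00256), and it held without the weak 5′ arrays at -1.21 (adjusted p = 0.00485). The second probe set, 231587_at, read 4.41 to 4.80 in all arrays, near the median of all probe sets, and was not called (-0.17, adjusted p = 0.463).

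APOA1, the main protein of high-density lipoproteins and the activator of LCAT, also fell after SPTLC123 siRNA. It read 12.84, 12.99 and 12.86 in SPTLC123, against 13.42, 13.31 and 13.33 in scramble, with no overlap. The change was -0.46 ± 0.09 (adjusted p = 0.0102), and 72.9% of the signal was left. Without any one array it stayed called, with an adjusted p from 0.00679 to 0.047, close to the threshold. The DEGS1 arrays, at 13.44, 13.65 and 13.62, all lay above the highest scramble array. Their difference of 0.22 ± 0.09 was not called (adjusted p = 0.178). A second bright probe set, 217073_x_at, gave -0.46 and 0.22 for the same comparisons, and the third, 231694_at, read 5.60 to 5.97 and was not called in either (-0.15 and -0.09). The call after SPTLC123 siRNA held without the weak 5′ arrays (-0.44, adjusted p = 0.0369).

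APOA2, the second most abundant protein of high-density lipoproteins, fell after DEGS1 siRNA and was not called after SPTLC123 siRNA. The values were 13.58, 13.61 and 13.53 in DEGS1, 13.88, 13.88 and 13.95 in SPTLC123, and 14.08, 13.99 and 13.98 in scramble. Each DEGS1 array lay below every other array. The change after DEGS1 siRNA was -0.44 ± 0.08 (adjusted p = 0.00732), with 73.7% of the signal left. It stayed called without any one array (adjusted p from 0.00869 to 0.0394). After SPTLC123 siRNA the difference was -0.11 ± 0.08 (adjusted p = 0.467), although those groups did not overlap either. The other probe set, 219465_at, changed by -0.55 after DEGS1 siRNA (adjusted p = 0.00899 in the fit over all probe sets). With only DEGS1 replicate 1 left in its group, the difference was -0.43 and not called (adjusted p = 0.162).

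**Figure D2:**
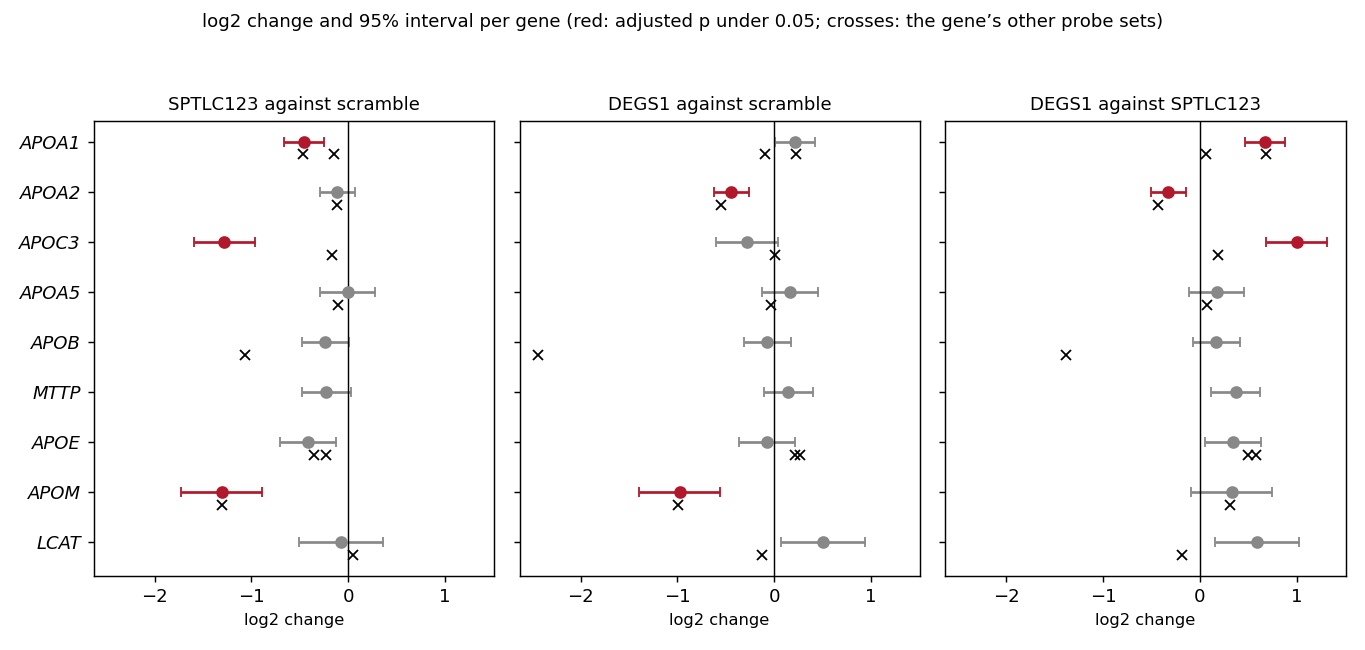
The log2 change of each gene with its 95% interval in the 3 comparisons; red marks an adjusted p under 0.05, and crosses are the gene's other probe sets. APOM is lower in both comparisons with scramble, and the crosses of APOB lie far from its main value, down to -2.44 after DEGS1 siRNA.

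The difference between the knockdowns was tested directly. APOA1 was higher after DEGS1 siRNA than after SPTLC123 siRNA by 0.67 ± 0.09 (adjusted p = 0.00132) and APOC3 by 1.00 ± 0.14 (adjusted p = 0.00164), whereas APOA2 was lower by 0.33, at -0.33 ± 0.08 (adjusted p = 0.0302). These were 3 of 9 members, 2 higher and 1 lower, against 8.66% of all genes called, 3.7% higher and 4.96% lower. In the fit without dim genes 3 members and 14.2% of genes were called. Over probe sets, 5 of 19 were higher and 2 lower, against 3.69% of all probe sets called (1.58% higher and 2.11% lower). The call of APOA2 ended with the replicate number as a block (adjusted p = 0.0511), with quantile normalization (adjusted p = 0.073) and without any single one of the SPTLC123 arrays or DEGS1 replicate 2 or 3 (adjusted p from 0.0711 to 0.114), with the change between -0.34 and -0.27 throughout. Without the 3 weak 5′ arrays no member was called by limma (3 higher and 1 lower at an unadjusted p under 0.05), against 1.42% of all genes, with APOC3 at 0.82 (adjusted p = 0.149) and APOA1 at 0.52 (adjusted p = 0.126). Without DEGS1 replicate 1 the count was 5, and the share of all genes called was 14.7%.

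APOE, the ligand that takes remnant particles into cells through the low-density lipoprotein receptor family, had 3 bright probe sets. They did not agree on the call between the knockdowns. The one used, 203381_s_at, read 12.25, 12.01 and 11.97 in DEGS1, 11.85, 11.91 and 11.44 in SPTLC123, and 12.11, 12.22 and 12.12 in scramble. All SPTLC123 arrays lay below all scramble arrays, but the difference of -0.42 ± 0.13 missed the threshold (adjusted p = 0.0704). In the fit over every probe set none of the 3 was called in this comparison (adjusted p = 0.143 on 203381_s_at). There 203382_s_at stood at -0.35 (adjusted p = 0.0983) and 212884_x_at at -0.23 (adjusted p = 0.308). The mean of the 3 probe sets was called, at -0.34 (adjusted p = 0.036), as was the probe set used in the fit with the actin covariate, at -0.33 (adjusted p = 0.0363). Against DEGS1, the other probe sets were called: DEGS1 minus SPTLC123 was 0.57 on 203382_s_at (adjusted p = 0.0175) and 0.50 on 212884_x_at (adjusted p = 0.0337), compared with 0.34 on 203381_s_at (adjusted p = 0.228 in the same fit). On 203381_s_at the weak 5′ arrays were the lowest of their group in both knockdowns. On the other pair, DEGS1 replicates 2 and 3, which have weak 5′ signal, were above DEGS1 replicate 1, but SPTLC123 replicate 3, also of weak 5′ signal, was the lowest of its group on both. The part of the 5′ signal in this disagreement was not tested.

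**Figure D3:**
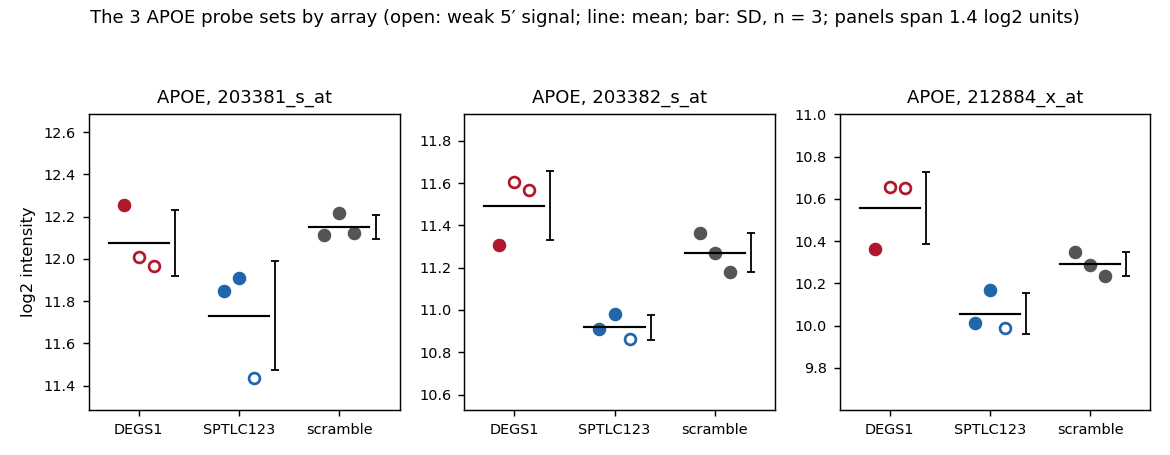
Level (log2 intensity) of APOE on its 3 probe sets by array and group, with mean and SD (n = 3); open circles are arrays with weak 5′ signal. SPTLC123 is the lowest group on each probe set, whereas DEGS1 lies near scramble on 203381_s_at and above it on average on the other pair.

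APOB and MTTP, which build the very-low-density particle, were not called in any comparison. APOB, the structural protein of these particles, read 13.13, 13.17 and 13.24 in DEGS1, 12.85, 12.97 and 13.22 in SPTLC123, and 13.38, 13.20 and 13.17 in scramble on probe set 205108_s_at. The groups overlapped, and the differences from scramble were -0.24 ± 0.11 for SPTLC123 (adjusted p = 0.227) and -0.07 ± 0.11 for DEGS1 (adjusted p = 0.765). The other APOB probe set, 223579_s_at, behaved differently: it read 11.00, 7.55 and 7.04 in DEGS1, 10.49, 10.89 and 8.35 in SPTLC123, and 11.00, 10.86 and 11.06 in scramble. Its 3 low values, 7.04 to 8.35, were exactly the 3 arrays of weak 5′ signal, and the 6 other arrays lay between 10.49 and 11.06. DEGS1 replicate 1, with 5′ signal like that of the scramble arrays, was at the scramble level. The differences of -2.44 ± 0.98 and -1.06 ± 0.98 from scramble, for DEGS1 and SPTLC123, were not called (adjusted p = 0.218 and 0.698). Of the 19 probe sets described here, this was the only one whose 3 lowest arrays were the weak 5′ arrays, and on none were these 3 the highest. Where this probe set lies on the long APOB transcript was not analysed here.

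**Figure D4:**
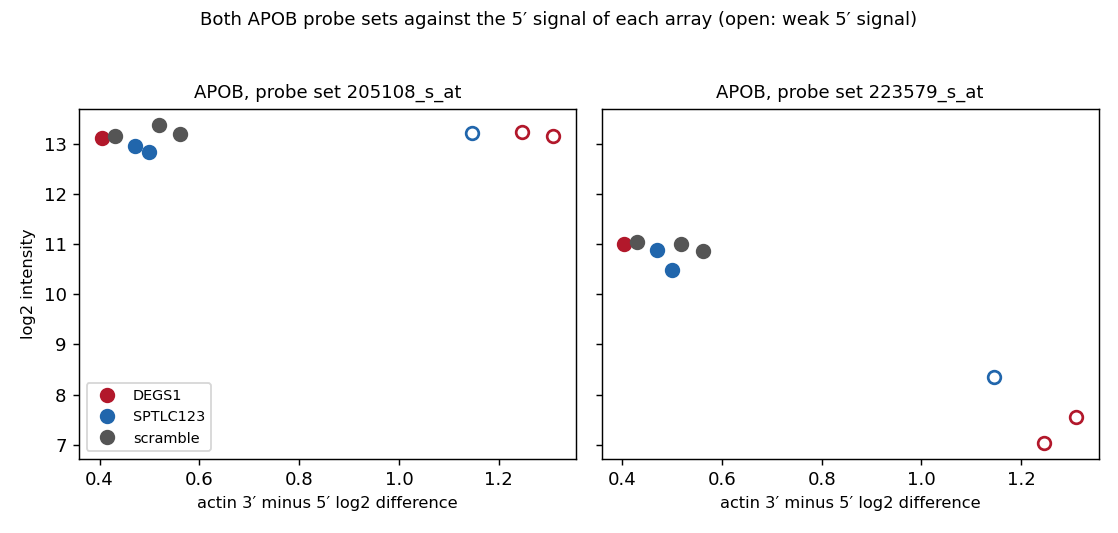
Level (log2 intensity) of APOB on its 2 probe sets against the actin 3′ minus 5′ log2 difference of each array, coloured by group; open circles are arrays with weak 5′ signal. On 223579_s_at those 3 arrays lie at 7.04 to 8.35 and the other 6 at 10.49 to 11.06, whereas on 205108_s_at all 9 lie between 12.85 and 13.38.

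MTTP, the lipid transfer protein that lipidates apolipoprotein B, had 1 probe set. It read 10.97, 11.15 and 11.18 in DEGS1, 10.61, 10.72 and 10.87 in SPTLC123, and 11.09, 11.02 and 10.75 in scramble. SPTLC123 lay below DEGS1 without overlap, but the difference of 0.37 ± 0.12 between the knockdowns was not called (adjusted p = 0.0752). It was called without DEGS1 replicate 1, at 0.44 (adjusted p = 0.0397), and with quantile normalization, at 0.47 (adjusted p = 0.0474). Against scramble the differences were 0.15 ± 0.12 for DEGS1 (adjusted p = 0.497) and -0.22 ± 0.12 for SPTLC123 (adjusted p = 0.28).

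APOA5 and LCAT act in plasma, and neither was called in any comparison. APOA5, which enhances lipolysis by lipoprotein lipase, lay between 6.25 and 6.82 in all arrays, and its groups overlapped in every comparison (adjusted p from 0.484 to 0.985). Its second probe set, at 4.03 to 4.23, was under the median level over probe sets. LCAT, the plasma enzyme that esterifies cholesterol on high-density lipoproteins, read 5.83, 6.68 and 6.48 in DEGS1, 5.84, 5.57 and 5.82 in SPTLC123, and 6.09, 5.67 and 5.70 in scramble. The DEGS1 difference of 0.51 ± 0.20 from scramble was not called (adjusted p = 0.135), with DEGS1 replicate 1 inside the scramble range. Without that array it was 0.76 (adjusted p = 0.00503), and the DEGS1 arrays then left are those of weak 5′ signal. Without the weak 5′ arrays it was 0.01 (adjusted p = 0.994). SPTLC123 replicate 3, also of weak 5′ signal, read 5.82, like replicate 1 of its group. The second LCAT probe set had the opposite sign (-0.13, adjusted p = 0.571).

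Several members lie side by side in the genome, and neighbours differed in their calls. On chromosome 11 (GRCh38.p14), APOA5 (116789367 to 116792420), APOA4 (116820700 to 116823304), APOC3 (116829907 to 116833072) and APOA1 (116835751 to 116837622) fall within 48256 bases. After SPTLC123 siRNA APOC3 and its neighbour APOA1, 2678 bases apart, fell by 1.28 and 0.46, whereas APOA4 and APOA5 stood at -0.01 ± 0.13 each (adjusted p = 0.976 and 0.985). These genes differ in level: the scramble mean was 5.87 for APOA4 and 6.50 for APOA5, against 10.60 for APOC3 and 13.35 for APOA1. On chromosome 19, APOC1 and APOC2, which lie beside APOE and encode further exchangeable apolipoproteins, differed by -0.19 ± 0.09 (adjusted p = 0.248) and -0.08 ± 0.11 (adjusted p = 0.751) after SPTLC123 siRNA. After DEGS1 siRNA none of these 7 genes was called by limma.

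The patterns most like those of the called members were sought among 12635 genes above the median level, as Pearson correlations over the 9 arrays. These describe 3 groups of 3 arrays that share their scaling, so a gene with the same group order scores high. Nearest to APOM were SERPINC1, which encodes antithrombin, LOX, a lysyl oxidase, and CA5A, a mitochondrial carbonic anhydrase (each r = 0.98). Nearest to APOC3 were the sialyltransferase gene ST3GAL1 and LOC105376805 (r = 0.99 each) and ITGB3BP (r = 0.99). RFLNB (0.99), ZNF629 (0.99) and EFHD2 (0.98) were nearest to APOA1, and IL6ST (0.98), the signal-transducing receptor of interleukin-6 cytokines, YBX3 (0.98) and DDAH1 (0.97) to APOA2. Among the members, APOM and APOC3 correlated at 0.82 and APOA1 and APOC3 at 0.82, but APOA1 and APOA2 at -0.53.

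Genes around the members were described by 7 lists holding 139 genes, of which 122 were measured. After SPTLC123 siRNA 6 rose and 16 fell, and the median was -0.07. After DEGS1 siRNA 10 rose and 15 fell, and the median was -0.01. The share called in all genes was 9.94% and 9.7%. Of the 122 genes 101 lay above the median level over probe sets. In the fit without dim genes 22 and 27 list genes were called, and the shares were 16.1% and 16.3%.

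Among 18 other apolipoproteins and lipoprotein-bound proteins, 1 rose and 1 fell after SPTLC123 siRNA (median -0.06). CLU, clusterin or apolipoprotein J, fell by 1.17, at -1.17 ± 0.12 (adjusted p = 0.000211), and PON3, a paraoxonase of high-density lipoproteins, rose by 0.39 ± 0.11 (adjusted p = 0.045). Of the 3 other CLU probe sets 2 had the same sign. After DEGS1 siRNA 3 of the 18 fell and 0 rose (4 and 0 at an unadjusted p under 0.05; median -0.02): the paraoxonase PON1 (-1.05 ± 0.20), APOH, beta-2-glycoprotein I (-0.95 ± 0.19), and APOO (-0.67 ± 0.17), a protein of the mitochondrial inner membrane. Their adjusted p were 0.00916, 0.0107 and 0.0359. Without the weak 5′ arrays PON1, APOH and APOO stood at -0.60, -0.50 and -0.30 and were not called (adjusted p from 0.233 to 0.336).

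Of 27 genes of assembly and secretion, 1 rose and 5 fell after SPTLC123 siRNA (median -0.10), and 2 rose and 4 fell after DEGS1 siRNA (median -0.10). PDIA4, a disulphide isomerase of the endoplasmic reticulum, rose in both, by 0.70 ± 0.09 after SPTLC123 siRNA (adjusted p = 0.000693) and 0.79 ± 0.09 after DEGS1 siRNA (adjusted p = 0.00053). SOAT2, which esterifies cholesterol for secretion, changed by -1.02 ± 0.12 after SPTLC123 siRNA (adjusted p = 0.000329), and the lipid scramblase gene TMEM41B by -0.72 ± 0.17 (adjusted p = 0.0218). After DEGS1 siRNA DGAT2, which makes triglyceride, changed by -0.98 ± 0.13 (adjusted p = 0.00135) and the carboxylesterase CES1 by -1.14 ± 0.18 (adjusted p = 0.0033). The other called genes of this list, named after their values were seen, were DGAT1 (-0.45 ± 0.12), KLHL12 (-0.48 ± 0.13) and SMLR1 (-0.34 ± 0.10) after SPTLC123 siRNA, with adjusted p of 0.0388, 0.045 and 0.0454. After DEGS1 siRNA they were CIDEB, a lipid droplet protein (0.61 ± 0.10), the chaperone HSPA5 (-0.39 ± 0.09) and TMEM41B (-0.67 ± 0.17), with adjusted p of 0.00444, 0.024 and 0.0332. Without the weak 5′ arrays, SMLR1 and KLHL12 were not called after SPTLC123 siRNA (adjusted p = 0.111 and 0.109), nor were CIDEB, HSPA5 and TMEM41B after DEGS1 siRNA (adjusted p = 0.15, 0.451 and 0.646). P4HB, the partner subunit of MTTP, was not called (-0.10 and 0.06 after SPTLC123 and DEGS1 siRNA).

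Of 13 lipases and regulators, 1 rose and 1 fell after SPTLC123 siRNA (median -0.02). LMF1, needed for lipase maturation, changed by -0.60 ± 0.11 (adjusted p = 0.00727) and the proprotein convertase PCSK5 by 0.89 ± 0.20 (adjusted p = 0.0153). Of the 8 other LMF1 probe sets 5 shared its sign and 0 were called the opposite way, here and after DEGS1 siRNA. After DEGS1 siRNA LMF1 alone was called, at -0.43 ± 0.11 (adjusted p = 0.0398; 0.111 without the weak 5′ arrays), with 2 higher and 4 lower at an unadjusted p under 0.05 and a median of 0.06. Of 11 receptors and uptake genes, 2 rose and 1 fell after SPTLC123 siRNA (median -0.08) and 2 rose and 2 fell after DEGS1 siRNA (median -0.02). LSR, the lipolysis-stimulated receptor, rose by 0.70 ± 0.14 and 0.71 ± 0.14 (adjusted p = 0.00923 and 0.0106), and LRP8, the apolipoprotein E receptor 2, by 0.84 ± 0.20 and 0.78 ± 0.20 (adjusted p = 0.022 and 0.0332). LRPAP1, a chaperone of the receptor family, changed by -0.48 ± 0.11 and -0.55 ± 0.11 (adjusted p = 0.0178 and 0.0103), but 2 other probe sets had the opposite sign in each comparison and were called the opposite way after SPTLC123 siRNA. The other gene that fell after DEGS1 siRNA, named after its value was seen, was VLDLR, the very-low-density lipoprotein receptor, at -1.46 ± 0.38 (adjusted p = 0.0374). After SPTLC123 siRNA VLDLR stood at -1.10 ± 0.38 and was not called (adjusted p = 0.103). It was dim, with means of 3.98 in DEGS1, 4.33 in SPTLC123 and 5.43 in scramble (SD 1.04), against the median over probe sets of 4.87. Without the weak 5′ arrays LSR, LRP8 and VLDLR were not called after DEGS1 siRNA (adjusted p = 0.268, 0.564 and 0.377), and LRPAP1 in neither comparison (0.0601 after SPTLC123 and 0.303 after DEGS1 siRNA).

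Of 11 cholesterol efflux genes, 1 fell and 0 rose after SPTLC123 siRNA (3 and 0 at an unadjusted p under 0.05; median -0.06) and 2 fell and 0 rose after DEGS1 siRNA (5 and 0; median -0.32). NR1H3, the liver X receptor alpha, changed by -0.99 ± 0.16 and -0.84 ± 0.16 (adjusted p = 0.00284 and 0.00848), and SOAT1 by -0.87 ± 0.11 after DEGS1 siRNA (adjusted p = 0.00117). ABCA1, which hands cellular cholesterol to apolipoprotein A-I, was not called (0.16 after SPTLC123 and 0.29 after DEGS1 siRNA, adjusted p = 0.6 and 0.293). Without the weak 5′ arrays NR1H3 and SOAT1 were at -0.63 and -0.64 after DEGS1 siRNA (adjusted p = 0.0591 and 0.0761).

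Of 26 transcription factors known to act on apolipoprotein genes, 1 rose and 3 fell after SPTLC123 siRNA (median 0.03). NR2F1, the nuclear receptor COUP-TF1, changed by -0.82 ± 0.17 (adjusted p = 0.0126), FOXO1 by -0.36 ± 0.10 (adjusted p = 0.0434) and RXRB by -0.34 ± 0.09 (adjusted p = 0.0437). After DEGS1 siRNA 5 rose and 1 fell (median 0.09), among them the thyroid hormone receptor THRB (0.74 ± 0.11), FOXA1 (0.75 ± 0.12) and RXRA (0.73 ± 0.12), with adjusted p of 0.00252, 0.00382 and 0.00399. NR2F6, named after its values were seen like the next pair, rose in both, by 0.53 ± 0.11 after DEGS1 siRNA and 0.38 ± 0.11 after SPTLC123 siRNA (adjusted p = 0.011 and 0.0458). After DEGS1 siRNA CREB3L3 stood at 0.36 ± 0.10 and FOXO1 at -0.41 ± 0.10 (adjusted p = 0.0483 and 0.0257). Of the 2 other probe sets each of THRB (after DEGS1 siRNA) and FOXO1 (after SPTLC123 siRNA), 1 had the same sign. The other probe set of RXRA had the opposite sign, and without the weak 5′ arrays FOXA1 was the 1 factor of these called after DEGS1 siRNA (adjusted p = 0.0442). THRB, RXRA, NR2F6, CREB3L3 and FOXO1 then had adjusted p of 0.129, 0.0916, 0.298, 0.241 and 0.15. After SPTLC123 siRNA FOXO1 and NR2F6 lost their calls without those arrays (adjusted p = 0.114 and 0.133).

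Of 16 genes of sphingosine 1-phosphate carriage, transport and signalling, 4 fell and 0 rose after SPTLC123 siRNA (5 and 1 at an unadjusted p under 0.05; median -0.15), and 2 fell and 1 rose after DEGS1 siRNA (median -0.14). SGPL1, the lyase that degrades sphingosine 1-phosphate, changed by -0.76 ± 0.09 after SPTLC123 siRNA (adjusted p = 0.00036) and stood at 0.02 after DEGS1 siRNA (adjusted p = 0.937). SGPP1, its phosphatase, fell in both, at -1.28 ± 0.09 after DEGS1 siRNA (adjusted p = 4.09e-05) and at -0.51 ± 0.09 after SPTLC123 siRNA (adjusted p = 0.00619). PLPP1, a lipid phosphate phosphatase, changed by -0.45 ± 0.10 and -0.41 ± 0.10 after DEGS1 and SPTLC123 siRNA (adjusted p = 0.0191 and 0.0262), and the receptor S1PR2 rose by 0.38 ± 0.09 after DEGS1 siRNA (adjusted p = 0.0197), with the opposite sign on its other probe set. After DEGS1 siRNA PLPP1 and S1PR2 were not called without the weak 5′ arrays (adjusted p = 0.278 and 0.253) or with the actin covariate (0.0729 and 0.0556). PLPP3, of the same family as PLPP1 and named after its value was seen, stood at -0.61 ± 0.16 after SPTLC123 siRNA (adjusted p = 0.0349). ALB, the other plasma carrier of sphingosine 1-phosphate, was not called (-0.12 after DEGS1 and -0.14 after SPTLC123 siRNA, adjusted p = 0.44 and 0.38).

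Of the list genes called, 17 of 22 after SPTLC123 siRNA and 5 of 25 after DEGS1 siRNA were also called without the weak 5′ arrays, and all kept their sign. With the actin covariate 22 of 22 and 15 of 25 were called. Leaving out each of the 9 arrays in turn kept the call of 8 genes after SPTLC123 siRNA: CLU, PDIA4, SOAT2, LMF1, LSR, NR1H3, SGPL1 and SGPP1. The other 14 lost it at least once, with a highest adjusted p between 0.0554 (NR2F1) and 0.157 (PON3). NR2F1 lost it without SPTLC123 replicate 1 or scramble replicate 2 and PCSK5 without scramble replicate 1 or 2, whereas PON3, SMLR1, TMEM41B, KLHL12, DGAT1, LRP8, LRPAP1, FOXO1, RXRB, NR2F6, PLPP1 and PLPP3 each lost it without any one of 4 to 8 arrays. After DEGS1 siRNA 11 genes kept the call throughout: PON1, CIDEB, PDIA4, DGAT2, CES1, NR1H3, SOAT1, FOXA1, RXRA, THRB and SGPP1. Of the other 14, LSR lost it without DEGS1 replicate 3, APOH, LRPAP1 and NR2F6 without DEGS1 replicate 2 or 3, and PLPP1 without DEGS1 replicate 3 or scramble replicate 3. APOO, HSPA5, TMEM41B, LMF1, VLDLR, LRP8, FOXO1, CREB3L3 and S1PR2 lost it without any one of 3 to 8 arrays (highest adjusted p from 0.094 to 0.16).

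**Figure D5:**
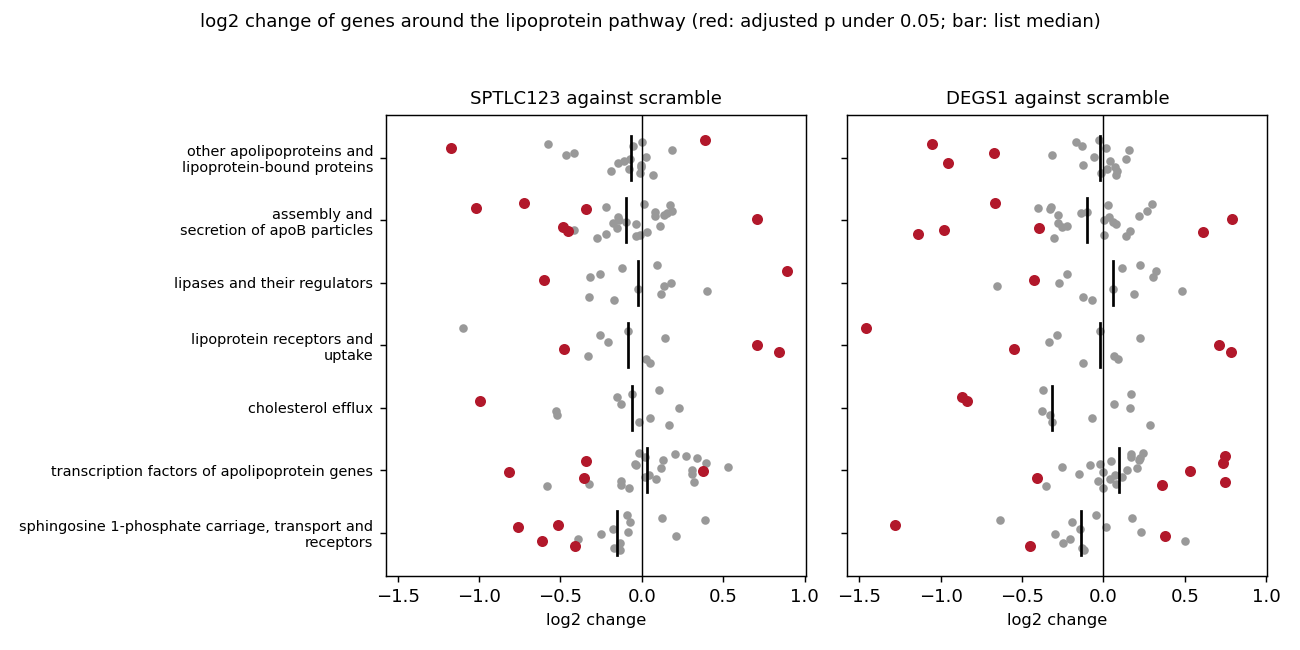
The log2 change of each measured gene of the 7 lists after SPTLC123 siRNA and after DEGS1 siRNA, against scramble; red points passed an adjusted p of 0.05 and bars are list medians. Calls lie on both sides of 0, from VLDLR at -1.46 after DEGS1 siRNA to PCSK5 at 0.89 after SPTLC123 siRNA. VLDLR was dim, at a mean of 3.98 in DEGS1 and 5.43 (SD 1.04) in scramble.

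Some markers of cell identity moved beside the members, and their calls without the weak 5′ arrays are not given. Of 9 hepatocyte markers 3 fell after DEGS1 siRNA (TTR, AHSG and HP) and 5 after SPTLC123 siRNA (the same with SERPINA1 and TF). Called lower were 5.04% and 4.63% of all genes, and 16.3% and 16.1% were called either way without dim genes. ALB, AFP, FGA and FGB were not called, with FGB at 0.31 after DEGS1 and -0.47 after SPTLC123 siRNA. The 9 hepatocyte markers summed to an intensity of 69193 to 78599 in DEGS1, 66192 to 71425 in SPTLC123 and 81315 to 86223 in scramble. Of 6 enterocyte markers 3 rose in each knockdown, SI and CDX2 in both. Called higher were 4.66% of all genes after DEGS1 siRNA and 5.31% after SPTLC123 siRNA. The enterocyte markers summed to an intensity of 905 to 1032 in DEGS1, 815 to 842 in SPTLC123 and 600 to 609 in scramble. FABP2, a defining enterocyte marker, stayed below the median of all probe sets (3.15 in DEGS1, 3.05 in SPTLC123 and 3.22 in scramble), and APOA4 did not differ from scramble at the threshold. Of 4 cholangiocyte markers 2 rose after SPTLC123 siRNA. The part of these shifts in the falls of APOM, APOC3, APOA1 and APOA2 was not tested. All samples were Huh7 cells, and in their bulk RNA fewer expressing cells and less RNA per cell cannot be told apart.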

How the data were processed

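Gene expression was measured in 9 Huh7 samples on Affymetrix arrays. The deposited values are normalized linear intensity, 1 per probe set and array, made by the authors; RMA, GCRMA (2.12.1) and, separately, limma (2.14.7) are listed per the submitters' processing notes, without saying which step each served. Values ran from 4.88 to 27330.6, with array medians of 27.92 to 30, and were log2-transformed without a pseudocount.

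Of 54613 probe sets without controls, 41091 had 1 symbol in the platform annotation, 1801 several, and 11721 were not listed; 41037 matched RefSeq by gene number. Each gene took its 1-symbol probe set with the highest mean. limma 3.58.1 in R 4.3.3 (lmFit, eBayes; 6 residual degrees of freedom) compared the groups two-sided, with Benjamini-Hochberg adjustment over 19775 genes; the fit over every probe set adjusted over 54613. It was tested on simulated data with independent noise in each gene and array. These held no 5′ signal difference between arrays, so the fit was not checked for that.

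Genes named were the members and the siRNA targets DEGS1, SPTLC1 and SPTLC2. Up to 3 called genes per list and comparison with scramble were added by adjusted p. The 3 genes most correlated with each called member were also named. APOA4, APOC1, APOC2, P4HB, ABCA1, ALB and the markers were named as context after their values were seen. Members, lists and alternatives were chosen with earlier results of these data known, including the 5′ signal. Samples are labelled as biological replicates without saying whether cultures were separate, so p-values measure the spread between these samples, which may be technical. With each gene's group mean subtracted, same-numbered samples of different groups correlated at -0.28 to 0.54. Of these pairs 3 of 9 were above 0.1, so numbers were not taken as pairs. Alternatives were other probe set rules, a dim filter, other normalizations, the variance model, the replicate block, the 5′ signal and leaving out arrays.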

Additional observations from a re-analysis of the deposited data

Results flagged for a closer look

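The effects of the 2 knockdowns differed by the test of DEGS1 against SPTLC123 in 3 of 9 measured members, against 8.66% of all genes. Without dim genes the share was 14.2%. APOC3 was higher after DEGS1 siRNA than after SPTLC123 siRNA by 1.00 (log2; 3 of 3 DEGS1 arrays above all SPTLC123 arrays), APOA1 was higher by 0.67 (3 of 3 likewise), and APOA2 differed by -0.33 (3 of 3 DEGS1 arrays below all SPTLC123 arrays). Without the 3 weak 5′ arrays 0 members were called by limma in this comparison (4 at an unadjusted p under 0.05), against 1.42% of all genes. APOA2 also lost its call with the replicate block, with quantile normalization and without any one of 5 arrays.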

How the results depend on the processing

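Among the single-gene changes, 449 kept direction and side of the threshold, 12 lost and 12 gained a call, and 13 changed sign; the cause was not tested. Without the 3 weak 5′ arrays, 0 members were called in DEGS1 against scramble and 0 in DEGS1 against SPTLC123 (2 and 4 at an unadjusted p under 0.05; 1 DEGS1 array), and 5 and 3 list genes, against 25 and 22; the shares of all genes were 1.31% and 1.42%, against 9.7% and 8.66%. With the actin covariate 15 list genes were called in DEGS1 against scramble and 34 in SPTLC123 against scramble (25 and 22), with 5.63% and 13.9% of all genes (9.7% and 9.94%). The mean of probe sets gave 16 in DEGS1 against scramble (6.77% of all genes), and every probe set 11 in SPTLC123 against scramble (6.42%), where more features are adjusted for. Leaving out single arrays gave 2 to 3, 2 to 5 and 3 to 4 members (DEGS1 against scramble, DEGS1 against SPTLC123, SPTLC123 against scramble), the 5 without DEGS1 replicate 1, and 13 to 41, 9 to 34 and 9 to 26 list genes, with 4.05% to 18.3%, 4.25% to 14.7% and 5.96% to 12% of all genes. The highest value of all 3 list ranges came without DEGS1 replicate 1, also in SPTLC123 against scramble. The lowest came without DEGS1 replicate 3, SPTLC123 replicate 1 and SPTLC123 replicate 1, in the same order.

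Sign changes touched only values not called. APOA5 in SPTLC123 against scramble was 0.03 with median centring, 0.01 with the actin covariate and -0.13 to 0.08 without single arrays. LCAT in SPTLC123 against scramble was -0.15 to 0.05 without single arrays. APOB in DEGS1 against SPTLC123 was -0.61 with the mean of its probe sets. APOE in DEGS1 against scramble was 0.14 with the mean of its probe sets, 0.02 with quantile normalization, 0.13 with the covariate and 0.10 without the weak 5′ arrays.

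The replicate block gave 3 members in SPTLC123 against scramble, 2 in DEGS1 against scramble and 2 in DEGS1 against SPTLC123, where APOA2 lost its call (adjusted p = 0.0511); it moved no count by over 1.5 times. The 3 arrays per group limit the precision of all comparisons.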
